A study of Mus musculus with 24 samples.

Results

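The genes described here are the replication-dependent H1, H3 and H4 histone genes of the mouse, taken as the protein-coding genes of the mm10 annotation (GENCODE M21) whose symbol starts with Hist1h, Hist2h, Hist3h or Hist4h followed by 1, 3 or 4. The rule found 31 genes of 21938 protein-coding genes on 21 chromosomes: 6 H1 genes (Hist1h1a to Hist1h1e and Hist1h1t), 12 H3 genes (Hist1h3a to Hist1h3i, Hist2h3b, Hist2h3c1 and Hist2h3c2) and 13 H4 genes (Hist1h4a, b, c, d, f, h, i, j, k, m and n, Hist2h4 and Hist4h4). The Hist1 genes lie on chromosome 13, the Hist2 genes on chromosome 3 and Hist4h4 on chromosome 6, and each of the 31 has a single exon. Protein interaction profile sequencing (PIP-seq) was done in MEL cells, a murine erythroleukemia line blocked at the proerythroblast stage, before induction (day 0) and after 2 and 4 days in 2% DMSO, which drives the line toward hemoglobin-making cells. No allele was altered, and every sample, day 0 included, was crosslinked with formaldehyde. Each of the 2 biological replicates of a day was split into a footprinting library, treated with nuclease while the proteins were in place, and a structure-only library, treated after the proteins were digested. Each of these was split between a single-strand nuclease (ssRNase, RNaseONE at 100 U/ml) and a double-strand nuclease (dsRNase, RNase V1 at 2.5 U/ml), which gives 24 libraries in 12 groups of 2. A protein-protected site (PPS) is a stretch of RNA with more reads in the footprinting than in the structure-only library, and the list of each day merges 4 call sets (2 nucleases by 2 replicates), each a comparison of 1 pair of libraries. The cells are 1 transformed line, so the days stand for induced MEL cells and not for erythroblasts of the marrow.

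Replication-dependent histone mRNAs are made in S phase, when new DNA has to be packed. H3 and H4 form the core of the nucleosome with H2A and H2B, and H1 binds the linker DNA where it enters and leaves the particle. These messages lack introns and, in cycling cells, a poly(A) tail. They end shortly after a conserved stem-loop that is bound by the stem-loop binding protein SLBP, and they are cut there by a machinery that contains the U7 small nuclear RNP. When DNA synthesis stops they are degraded quickly, starting with the addition of uridines at the 3′ end. Some of these genes also give longer polyadenylated transcripts in cells that leave the cycle, and replacement variants such as those from H3f3a, H3f3b and H1f0 are made from ordinary polyadenylated messages throughout the cycle.

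The stem-loop was found by sequence, since it is the element these messages share and the end against which the positions below are read. The search was for a stem of 6 paired bases around a loop of 4, opening with GG, closing with CC and with T and A as the innermost pair, on the sense strand within 150 nt after the stop codon. All 31 genes held it, as did 31 of the 36 H2A and H2B genes and 82 of 21752 coding genes with a stop codon (0.377%). It came in 7 forms, printed here 5′ to 3′ from the mm10 genome as DNA letters, with 7 flanking bases on each side and the 16-nt stem-loop in capitals.
Hist1h3b, chr13:23752820-23752835, plus strand, the form of 5 H1 and 8 H3 genes: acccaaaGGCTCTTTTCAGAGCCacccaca
Hist1h1t, chr13:23696525-23696540, plus strand, the form of 1 H1 and 3 H3 genes: acccaaaGGCTCTTTTAAGAGCCacttaca
Hist1h3g, chr13:23535889-23535904, plus strand, this gene alone: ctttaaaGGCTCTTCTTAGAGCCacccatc
Hist1h4c, chr13:23698089-23698104, minus strand, the form of 8 H4 genes: aacaaaaGGCCCTTTTCAGGGCCacccaca
Hist2h4, chr3:96262939-96262954, minus strand, the form of 2 H4 genes: ccctaacGGCCCTTTTTAGGGCCaaccaca
Hist1h4b, chr13:23757366-23757381, plus strand, the form of 2 H4 genes: tacaaaaGGTCCTTTTCAGGACCactcact
Hist1h4a, chr13:23760800-23760815, minus strand, this gene alone: aaccaaaGGCCCTTCTCAGGGCCgcccaca
No form was shared between the H4 genes and the other families. The H1 and H3 genes shared their pair of common forms, and a stem-loop cannot tell members of those families apart.

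The lists held 114907, 119487 and 122038 PPSs at days 0, 2 and 4 once those of 20 to 40 nt were left out. Before that step, a single call set had added from 20569 to 89671 calls. As a check on the labels, 10 of 12 erythroid markers gained coverage from day 0 to day 4 and 0 lost it. The beta globin gene Hbb-bs went from 10.4% of its exonic nucleotides in a PPS to 78.9%. None of the markers of T cells, B cells, myeloid cells and fibroblasts had an exonic PPS at any day, and 2 of 3 megakaryocyte markers had. Coverage, the percent of a gene's exonic nucleotides that lie in a PPS of the same strand, is the measure used throughout. A replicate's value counts the PPSs with at least 1 call of that replicate, and since the edges of a merged PPS come from all its calls, the spread between replicates understates the true one. A nuclease's value likewise counts the merged PPSs with at least 1 call of that nuclease. A PPS with calls of both nucleases therefore counts for each, over its full length, and the 2 values are not independent. A change was called when both replicates of a day lay on the same side of both replicates of the other day. With 2 replicates against 2 the smallest two-sided exact permutation p is 0.333, so no p is given, and the range over the 4 pairs of replicates serves as the error. The labels number 2 replicates a day, and mRNA levels were not analysed here, so fewer molecules of a message and less protection per molecule cannot be told apart.

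The H1, H3 and H4 messages were far more covered than the usual message at every day. All 31 genes had an exonic PPS at day 0, 29 at day 2 and 27 at day 4. Their median coverage was 37.6%, 49.4% and 35.9% at days 0, 2 and 4, against 5.998%, 5.59% and 6.02% over the 9550 protein-coding genes with an exonic PPS at some day. H3 coverage had a median of 47.8%, 58.5% and 34.1%, H4 coverage one of 36.9%, 41.1% and 35.9%, and H1 coverage one of 28.6%, 38.5% and 25.1%. These are medians of levels. The median change per gene from day 0 to day 2 was -0.63 points over the 31 genes. By family it was -0.92 for H1, -2.72 for H3 and 3.83 for H4 genes. Each of these changes had replicate pairs on both sides of 0, so none was called. From day 0 to day 4, the median change over the 12 H3 genes was -20.9 percentage points, with replicate pairs from -23.6 to 0.33, so it did not hold in every pair, and without replicate 2 of day 0 it was 4.53. For the 6 H1 genes it was -10.7 points, from -13.8 to -9.05, below 0 in all 4 pairs, and -4.36 without replicate 2 of day 0 and -16.7 without replicate 1 of day 4. PPSs made from a single call turned it to 0.88. For the 13 H4 genes it was -0.32 points, from -0.96 to 15.7, and 20.5 without replicate 2 of day 0. The median change over all genes was 0 (0 to 0.13). A pooled value counts the PPSs of both replicates, so it can lie outside the range of the pairs.

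Called gene by gene, 9 of the 31 genes fell from day 0 to day 4, among 9550 genes of which 25.4% fell, and 6 rose, where 30.8% of all genes rose. The 31 genes together therefore sat near the background in both directions. The 9 that fell were 4 H1 genes (Hist1h1a, Hist1h1b, Hist1h1d and Hist1h1e) and 5 H3 genes (Hist1h3a, Hist1h3d, Hist2h3b, Hist2h3c1 and Hist2h3c2), and 0 of 13 H4 genes fell. Without replicate 2 of day 0 the merged values of Hist1h1b and Hist1h3d changed by 0.27 and 2.16 points in place of -28.9 and -8.81. The 6 that rose were Hist1h1c, Hist1h3e, Hist1h3g, Hist1h4a, Hist1h4c and Hist1h4m. In the first step, day 0 to day 2, 8 genes rose where 22.3% of all genes did, and 1 fell (Hist1h1d) where 30.4% did. In the second, day 2 to day 4, 14 fell where 19.3% did and 5 rose where 33.8% did. Of those 14, 10 were H3 genes, 2 were H1 genes and 2 were H4 genes. For the H3 genes the median change in that second step was -16.2 points, with pairs from -22.0 to -16.7, the pooled value again just outside the pairs.

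**Figure D1:**
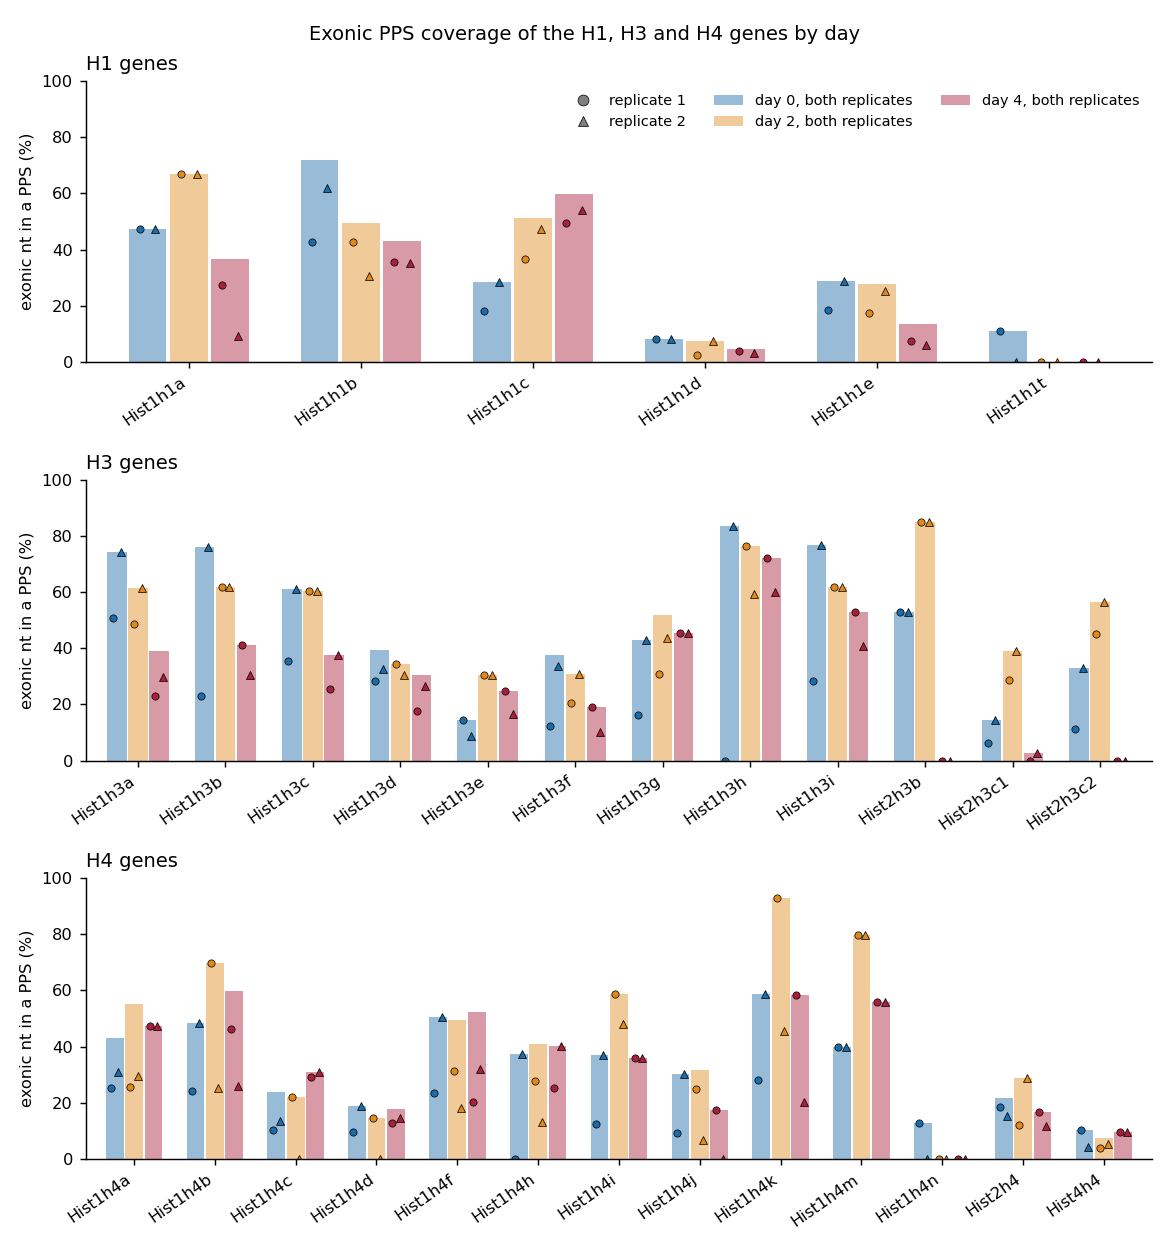
Percent of exonic nucleotides in a PPS (vertical axis) for each of the 31 genes, in 1 panel per family. Bars give the value of the merged list at day 0, 2 and 4, circles replicate 1 and triangles replicate 2. Hist1h1c climbs at each step, the 3 Hist2h3 genes drop to between 0 and 2.74% at day 4, and most H4 bars at day 4 stand near their day 0 height.

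Among the linker histones, Hist1h1c moved the other way from its family. Hist1h1c, which encodes the H1.2 linker histone, was covered over 28.6% of its exon at day 0 (18.2% in replicate 1 and 28.6% in replicate 2), 51.2% at day 2 (36.7% and 47.4%) and 59.7% at day 4 (49.6% and 54.2%). Each step put both replicates above both of the day before, and its number of PPSs went from 5 to 9 to 10. Hist1h1b, which encodes H1.5, was the most covered H1 gene at day 0 with 72.01% (42.8% and 61.8%), then 49.4% (42.8% and 30.7%) and 43.1% (35.7% and 35.1%). Its day 4 replicates lay below both day 0 replicates, and its day 2 replicates did not, since 1 of them equalled the lower day 0 value. Hist1h1e, which encodes H1.4, held 28.7% at day 0 (18.6% and 28.7%), 27.7% at day 2 (17.5% and 25.4%) and 13.6% at day 4 (7.36% and 6.22%). Its model overlaps 496 nt of the genes Gm11398 and Hist1h2be on the same strand. Hist1h1a held 47.2% in both replicates at day 0, 66.9% in both at day 2 and 36.7% at day 4 (27.5% and 9.18%), so it rose and then fell. Hist1h1d has a model of 7425 nt, most of it outside the histone message, and its coverage of 8.27%, 7.47% and 4.57% is low for that reason. Hist1h1t, the testis linker histone, had PPSs at day 0 only, over 10.96% of its exon and from replicate 1 alone.

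Among the H3 genes, 8 encode 1 protein (H3.2) and 4 encode another (H3.1) that differs from it by 1 residue. The largest fall of all was in Hist2h3b, which was covered over 52.9% at day 0 and 84.8% at day 2, in both replicates alike, and was at 0 at day 4. The merged PPS of day 2 ran over 414 nt from just before the start codon to just before the stop codon and carried calls from ssRNase replicate 1 and dsRNase replicate 2. The neighbouring Hist2h3c2 went from 32.8% (11.2% and 32.8%) to 56.5% (45.0% and 56.5%) and then 0, and Hist2h3c1 from 14.2% (6.25% and 14.2%) to 39.1% (28.7% and 39.1%) and then 2.74% (0 and 2.74%). Counted over merged PPSs, these 3 H3 genes therefore rose at day 2 and fell by day 4 in every pair of replicates. The coding PPS of each at day 2 joined an ssRNase replicate 1 call and a dsRNase replicate 2 call. Counted over PPSs with a dsRNase call, the fall from day 0 to day 4 was called in all 3. The changes into and out of day 2 were then called in none. A same-strand gene, Gm20634, overlaps all 1825 nt of Hist2h3c1, and an opposite-strand gene, Gm20628, all of Hist2h3b. In the Hist1 cluster, Hist1h3a went from 74.2% (50.7% and 74.2%) to 61.2% (48.7% and 61.2%) and 39.1% (23.03% and 29.6%), and its day 4 replicates lay below both others. Hist1h3b had 76.0% at day 0, 61.9% at day 2 and 41.3% at day 4, but its day 0 replicates were 22.9% and 76.0%, and day 4 with 41.3% and 30.5% lay between them. Hist1h3h, the most covered member at day 0 with 83.5%, owed all of it to replicate 2, since replicate 1 had none, and then held 76.4% (76.4% and 59.4%) and 72.02% (72.02% and 60.1%). Hist1h3i likewise went from 76.6% (28.5% and 76.6%) to 61.8% (both replicates) and 52.8% (52.8% and 40.6%). For Hist1h3b, Hist1h3h and Hist1h3i, then, the 2 replicates of day 0 were farther apart than the days. Hist1h3e rose from 14.4% (14.4% and 8.73%) to 30.4% in both replicates and 24.6% (24.6% and 16.6%), and Hist1h3g from 42.8% (16.2% and 42.8%) to 45.3% in both at day 4.

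All 13 H4 genes encode 1 protein of 103 residues, and none of them was called as fallen from day 0 to day 4. Hist1h4m rose from 40.05% at day 0 to 79.6% at day 2 and lay at 55.7% at day 4, in both replicates alike. Hist1h4k was the most covered H4 gene at day 0 with 58.7% (28.2% and 58.7%), reached 92.9% at day 2 (92.9% and 45.5%) and returned to 58.3% (58.3% and 20.2%). Hist1h4f hardly moved in the merged lists, at 50.6%, 49.4% and 52.4%, with replicates of 23.5% and 50.6%, 31.2% and 18.2%, and 20.5% and 32.0%. Hist1h4b held 48.4% (24.2% and 48.4%), 69.8% (69.8% and 25.2%) and 59.7% (46.3% and 25.9%). The replicates of these 3 genes overlapped between all days. Hist1h4j had 30.4% (9.43% and 30.4%), 31.7% (24.8% and 6.85%) and 17.3% (17.3% and 0). Hist1h4n was covered over 12.8% at day 0 by a single call of replicate 1 and was at 0 afterwards. Hist1h4a and Hist1h4c rose by 4.08 and 6.83 points from day 0 to day 4 in the merged lists, with every pair of replicates higher at day 4. The other H4 genes, Hist1h4d, Hist1h4h, Hist1h4i, Hist2h4 and Hist4h4, were not called, with changes between -5.15 and 2.98 points.

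The annotated models set part of these levels. Hist1h3h, Hist1h3i and Hist1h4k are annotated as coding sequence only, while Hist1h1d, Hist2h4 and Hist4h4 have long models past the stem-loop, so coverage per exon compares a gene with itself across days better than genes with each other. Over a common span, from the start codon to 5 nt past the stem-loop, the medians were 73.1%, 75.7% and 47.3% for H3 at days 0, 2 and 4, 52.6%, 54.7% and 57.3% for H4, and 57.7%, 63.9% and 38.3% for H1. Hist2h3c1 and Hist2h3c2, unlike on their full exons, were then the same gene in numbers, with 50.2%, 91.3% and 0 in each.

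The PPSs of these genes had dsRNase calls more often than ssRNase calls at every day, narrowly so at day 2. A dsRNase call was in 88.6%, 67.1% and 94.3% of them at days 0, 2 and 4. Among all exonic PPSs of coding genes the shares were 59.7%, 46.8% and 68.3%. At day 0, 26 of the 88 PPSs on the 31 genes had an ssRNase call, 29.5% (95% Wilson interval 21.03 to 39.8), against 61.6% of all exonic PPSs of coding genes. At day 4, 12 of 87 did, 13.8% (8.07 to 22.6), against 56.2%. At day 2, 52 of 85 did, 61.2% (50.5 to 70.8), against 74.0%. These intervals cover counting error only, and PPSs on near-identical genes are not independent. The day 4 share was lowest in the core histones, with 2 of 27 PPSs on H3 genes and 1 of 32 on H4 genes, while 9 of 28 PPSs on H1 genes had an ssRNase call. The PPSs were also longer than usual, with a median of 100, 92 and 72 nt at days 0, 2 and 4 against 62, 58 and 63 nt, and the longest, of 459 nt, covered Hist2h3c1 and Hist2h3c2 at day 2. No PPS lay on the antisense strand of these exons at any day.

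The ssRNase coverage of day 2 came from 1 of its 2 replicates. In replicate 1 the mean coverage by ssRNase calls was 44.1% over the H3 genes, 28.5% over the H4 genes and 10.6% over the H1 genes. In replicate 2 it was 2.48%, 3.06% and 3.94%. The H2A and H2B genes showed the same gap, with 30.5% and 4.15%. Over all genes tested the order was the opposite, 3.47% in replicate 1 and 4.31% in replicate 2, and replicate 2 had the larger number of calls. The part of either in the gap was not tested. At day 0 the ssRNase means over the 31 genes were 7.01% and 5.24%, and at day 4 they were 1.58% and 1.82%. The ssRNase calls thus rose at day 2 beyond day 0 in 4 of 31 genes, where 23.1% of all genes rose, and fell in 2, where 16.6% did. By day 4 they had fallen below day 0 in 4 genes (21.4% of all genes) and risen in 2 (22.2%). From day 2 to day 4 they fell in 7 genes (22.8% of all genes) and rose in 1 (16.9%).

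By dsRNase calls, no family mean rose from day 0 to day 2 in every pair of replicates. Over H3 genes the mean coverage by dsRNase calls was 21.5% and 48.8% in replicates 1 and 2 at day 0. It was 26.5% and 49.2% at day 2 and 26.8% and 23.9% at day 4. The H3 replicates differed more within day 0 and within day 2 than replicate 1 did across days. Over H4 genes the means were 10.1% and 28.7%, then 17.9% and 20.03%, then 28.8% and 24.9%. Over H1 genes they were 23.4% and 26.6%, then 22.8% and 25.7%, then 18.2% and 12.05%, so the 2 H1 replicates of day 4 lay below all 4 earlier ones. By gene, dsRNase coverage rose from day 0 to day 4 in 4 H4 genes and fell in 0, whereas it fell in 5 H3 and 4 H1 genes and rose in 2 and 1. Of all genes 27.2% rose and 17.4% fell. From day 0 to day 2, it rose in 4 of the 31 genes, where 7.66% of all genes rose, and fell in 6, where 28.1% did. Those 4, Hist1h1a, Hist1h1c, Hist1h3e and Hist1h4m, were also called as risen with both nucleases. From day 2 to day 4, dsRNase coverage fell in 8 genes, where 6.27% of all genes fell. It rose in 9, of which 7 were H4 genes, where 34.9% of all genes rose. The test of a difference between families was not run, because genes of a family share sequence and are not replicates.

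**Figure D2:**
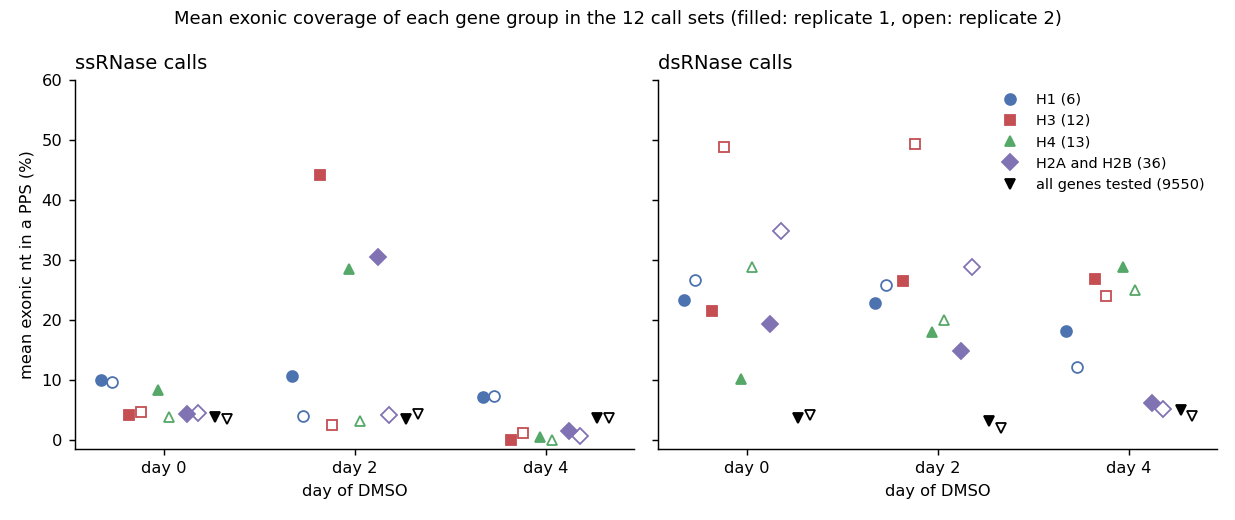
Mean percent of exonic nucleotides in a PPS (vertical axis) by day for ssRNase calls (left) and dsRNase calls (right), with filled marks for replicate 1 and open marks for replicate 2 of each gene group. The filled ssRNase marks of H3, H4, H2A and H2B genes stand between 28.5% and 44.1% at day 2 while the open marks stand below 5, and the dsRNase marks of the H2A and H2B genes drop to 6.07% and 5.05% at day 4.

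The H2A and H2B genes, whose products pair with H3 and H4 in the nucleosome, lost more coverage by day 4 than the H4 genes. Of 36 such genes, 23 fell from day 0 to day 4 and 0 rose, where 25.4% of all genes fell and 30.8% rose, with a median of 41.1%, 37.7% and 5.51% at days 0, 2 and 4. Their median change of -29.7 points ran from -35.5 to -4.26 over the replicate pairs, whereas that of the H4 genes ran from -0.96 to 15.7, without overlap. Hist1h2bk went from 70.8% (31.5% and 70.8%) to 74.4% and then 0, and Hist1h2ag from 75.7% to 50.1% and 8.66%. Hist1h2bl went from 71.7% to 70.6% and then 0, with 0 in replicate 1 of day 0, and was not called.

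Along the message, the PPSs lay mainly on the coding sequence, and most of those near the stem-loop ended before it. With the coding sequence cut into 3 equal parts, the first, middle and last were covered at day 0 over 72.5%, 45.9% and 63.8% of their nucleotides, summed over the 31 genes. The segment from the stop codon to the stem-loop had 32.0%, the stem-loop itself 18.5%, the exon beyond it 4.10% and the 5′ UTR 16.5%. At day 2 the dip in the middle of the coding sequence was gone from these sums, with 72.04%, 71.5% and 58.6%, and the segment before the stem-loop held 13.1%. By family, the merged list still had it in H4 genes (69.6%, 53.6% and 65.6%). It was absent in H3 genes (97.5%, 90.0% and 56.9%) and H1 genes (42.4%, 66.8% and 53.5%). At day 4 the dip over the 31 genes was back, at 55.2%, 25.6% and 56.4%, and the segment before the stem-loop held 29.3%.

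The middle part moved widely in H3 genes. It was covered over 55.8% at day 0, 90.0% at day 2 and 13.4% at day 4. Its replicates were 0 and 55.8% at day 0, 89.2% and 90.0% at day 2 and 9.61% and 13.4% at day 4. With both nucleases, day 2 thus lay above both other days, and day 0 spanned day 4. The ssRNase replicates differed at day 2, with 88.4% covered in replicate 1 and 0 in replicate 2. By dsRNase calls it was 43.4% and 90.0% at day 2 and 0 and 55.8% at day 0, so the replicates overlapped. The last part of the H4 coding sequence held 65.9% (16.6% and 64.6%), 65.6% (60.2% and 17.0%) and 85.4% (85.4% and 59.3%), and these replicates overlapped. The segment between stop codon and stem-loop moved in opposite directions in the 2 families. In H3 genes it went from 58.8% (44.0% and 58.8%) to 22.0% (22.0% and 14.6%) and 15.7% (15.7% and 3.02%). In H4 genes it went from 6.93% (6.93% and 0) to 6.005% (6.005% and 0) and 43.0% (35.3% and 39.3%). Both shifts from day 0 to day 4 were larger than the gap between replicates.

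The nucleases read different places. At day 0 ssRNase calls lay around the start codon, where 54.8% of the genes were in such a PPS, and covered none of its last part. At day 4 the share at the start codon was 3.23%. At day 2 it was highest inside the coding sequence, at 74.2% of the genes 230 nt from the start codon. Replicate 2 of day 2 covered 0, 0 and 1.19% of the first, middle and last parts by ssRNase calls. In the last part of the H4 coding sequence ssRNase calls covered 60.2% at day 2, with 60.2% in replicate 1 and 0 in replicate 2. They covered 0 there at the other days. The dsRNase profile had a low point at 125 nt from the start codon at day 0, with 16.1% of the genes, and at 190 nt at day 4, with 12.9%.

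**Figure D3:**
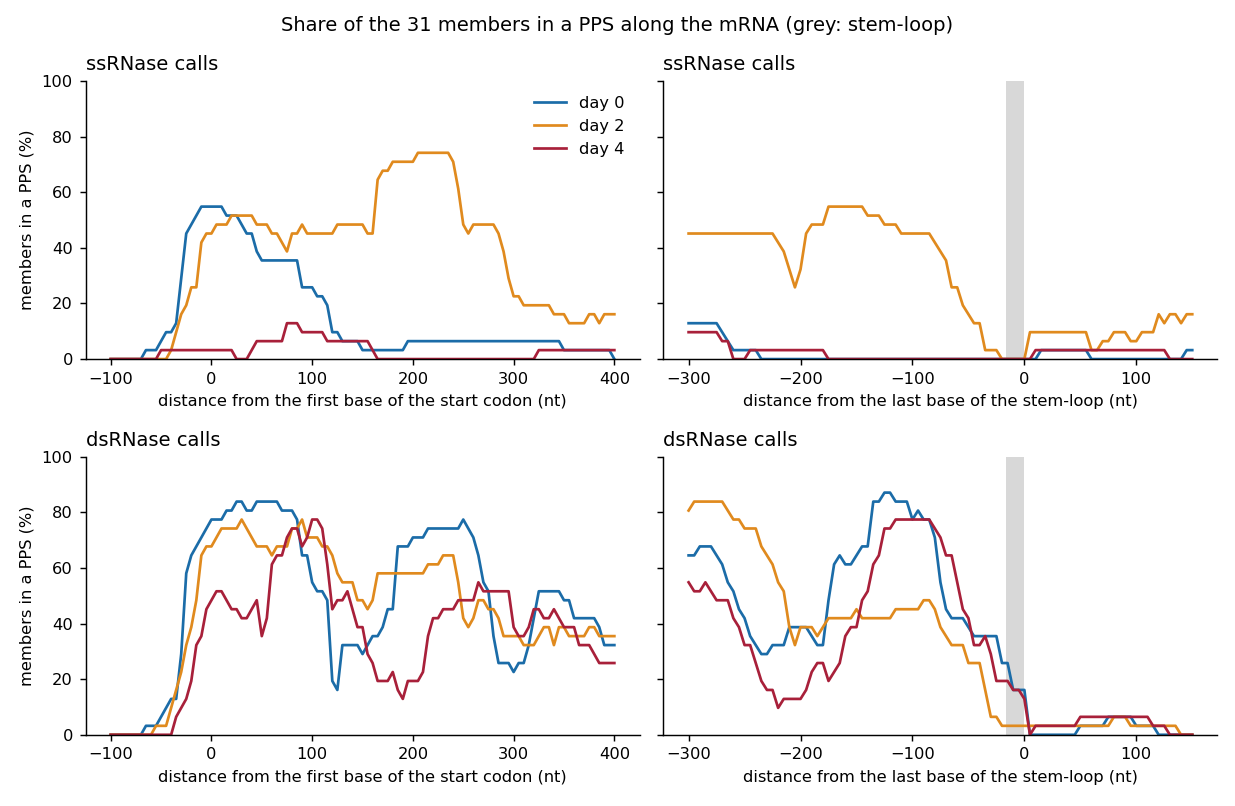
Percent of the 31 genes in a PPS (vertical axis) by distance in nt from the first base of the start codon (left) and from the last base of the stem-loop (right, with the stem-loop in grey), for ssRNase calls (top) and dsRNase calls (bottom), 1 line per day. The ssRNase line of day 2 stands over the coding sequence at up to 74.2%, almost wholly from replicate 1, and the lines fall to low values at the end of the stem-loop.

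The PPSs that covered the stem-loop all ended just past it. Of 103 PPSs within 150 nt of the stem-loop's last base (36, 37 and 30 at days 0, 2 and 4), 10 covered the whole stem-loop, and those 10 ended 2 to 4 nt past it. None ran across it by more than 10 nt. Another 62 ended 17 to 100 nt before its end, 5 ended inside it, and 4 began 0 to 10 nt past it. The genes with a wholly covered stem-loop were Hist1h1b, Hist1h1e, Hist1h3a, Hist1h3b and Hist1h4a at day 0, Hist1h3d at day 2, and Hist1h1e, Hist1h3h, Hist1h4b and Hist1h4c at day 4. Hist1h1e was the only gene in both the day 0 and the day 4 set. All 10 PPSs had dsRNase calls, and the ssRNase calls outside the 20 to 40 nt range covered no whole stem-loop on any day. By replicate, the dsRNase calls covered 4 and 3 stem-loops at day 0. The stem-loop sequences printed above do not tell these genes apart from the rest, since the form of Hist1h3b, which Hist1h1b, Hist1h1e, Hist1h3a, Hist1h3d and Hist1h3h also carry, stood in 7 other genes with no wholly covered stem-loop.

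**Figure D4:**
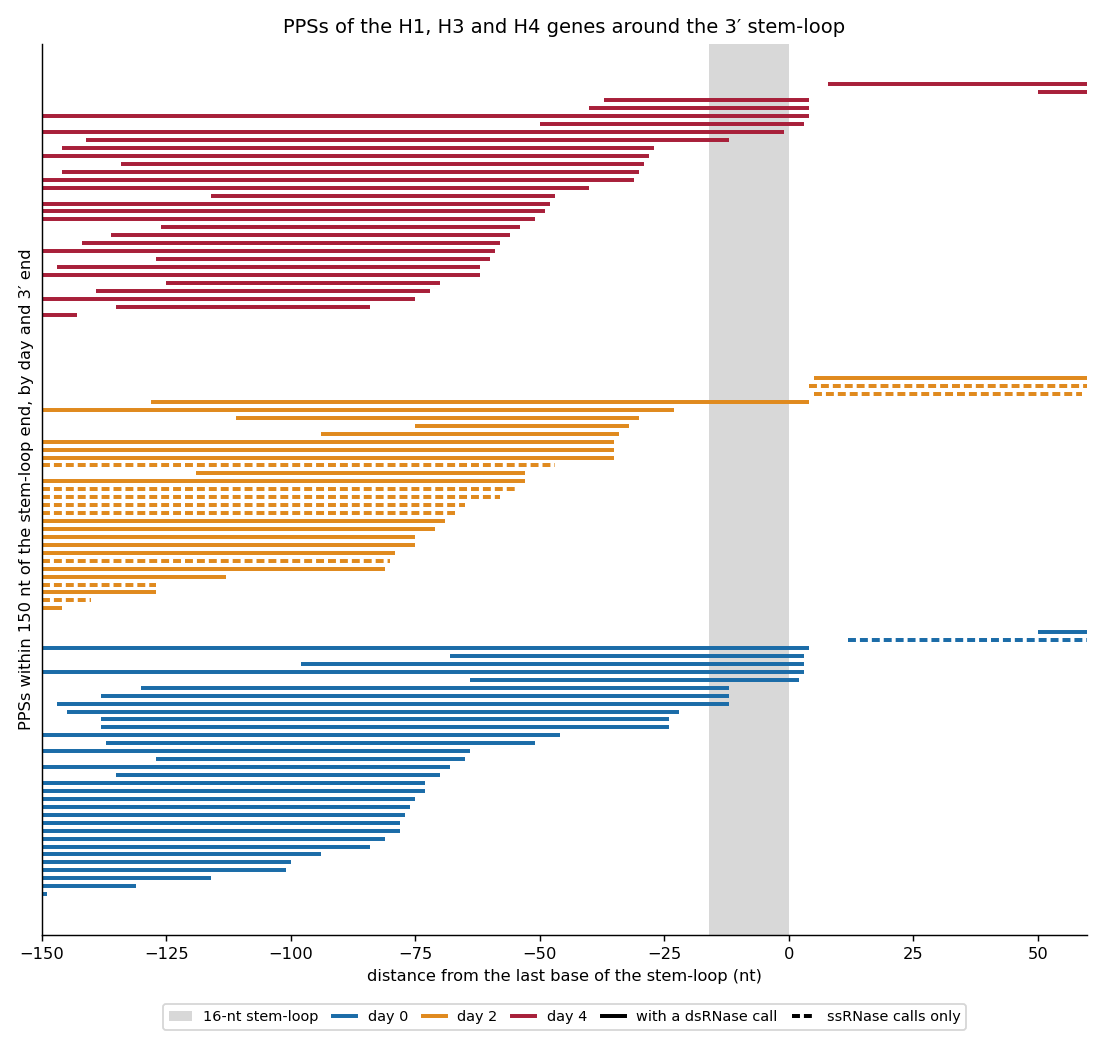
Each line is 1 PPS of the 31 genes within 150 nt of the stem-loop's last base, drawn by distance in nt (horizontal axis) and stacked by day and 3′ end, with the stem-loop in grey and dashes for PPSs with ssRNase calls only. The lines that cover the grey band end 2 to 4 nt past it, and no line crosses it by more than 10 nt.

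Some PPSs did lie past the stem-loop, on the part of the annotated exon that the mature stem-loop message would lack. Of 16 genes with 100 nt or more of annotated exon there, 6, 11 and 4 had such a PPS at days 0, 2 and 4, with 11, 21 and 9 PPSs in all. At day 2, 20 of the 21 had an ssRNase call. The exon beyond the stem-loop was also where ssRNase replicate 2 of day 2 had its calls, with 8.03% of those nucleotides against 0, 0 and 1.19% of the first, middle and last parts of the coding sequence. Hist1h1c stood out, with 840 nt of exon past its stem-loop. That stretch was covered over 19.3% at day 0 (0 in replicate 1 and 19.3% in replicate 2), 43.7% at day 2 in both replicates and 45.7% at day 4 (40.4% and 45.7%), so part of its rise lay there. Its stretch up to the stem-loop rose as well, from 23.5% to 59.1% and 79.8% of the positions that occur a single time in the genome. Hist1h4i had 27.3% at day 0 and 45.2% at day 2 past its stem-loop, in both replicates alike, and none at day 4. Hist1h1c and Hist1h4i are named here after their values were seen.

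Near-identical copies limit what can be said of single H3 and H4 genes. The coding sequences of the 12 H3 genes were 93.7% to 100% identical (median 97.2%) and those of the 13 H4 genes 85.3% to 100% (median 93.9%). From the start codon to 5 nt past the stem-loop, the share of 30-nt words found in more than 1 place of the genome had a median of 81.6% for H3 genes (68.2% to 100%), 66.3% for H4 genes (0.838% to 100%) and 15.8% for H1 genes (0 to 32.4%). The authors set the aligner to a limit of 10 hits a read. A median of 15.2% of the words of H3 genes and 16.02% of those of H4 genes had more places than that. How reads with more hits were placed is not given in the sources used here. Hist4h4, Hist2h4, Hist1h1a, Hist1h1b and Hist1h1t were the least repeated members, with up to 11.4% of words repeated.

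PPS edges recurred at the same distance from the start codon in several genes. At day 0, 6 PPSs of H3 genes (Hist1h3a, b, c, d, h and i) began at 130 nt, and each was a single call of dsRNase replicate 2. At day 2, 6 PPSs of H4 genes (Hist1h4a, b, c, h, j and k) began at 161 nt, all with an ssRNase replicate 1 call. At day 4, 5 PPSs of H3 genes ended at 50 nt, all with a dsRNase replicate 1 call. At least 1 edge within 2 nt of that of another gene of the family was found in 26 of 34 PPSs of H3 genes and 25 of 31 of H4 genes at day 0, against 4 of 23 of H1 genes. Of the PPSs at day 0, 13 on H3 genes, 10 on H4 genes and 1 on an H1 gene held no 30-nt word of their own. Such PPSs can stem from reads of any copy, and PPSs on several genes may then be 1 set of reads counted on each.

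Stretches that lay in such repeated PPSs are shown to give the scale of the problem, in lower case, 5′ to 3′, from the coding strand of mm10.
The start of the H3 coding sequence, chr13:23752380-23752409 in Hist1h3b, found in 9 places, in a PPS shared at day 0 by Hist1h3b, Hist1h3g and Hist1h3i: atggctcgtactaagcagaccgctcgcaag
H4 coding sequence from nt 185, chr13:23760944-23760973 in Hist1h4a, found in 11 places, in a PPS shared at day 0 by Hist1h4a, Hist1h4b and Hist1h4k: tcctggagaacgtgatccgcgacgccgtca
H4 coding sequence from nt 216, chr13:23757236-23757265 in Hist1h4b, found in 9 places, in a PPS shared at day 4 by Hist1h4b, Hist1h4f and Hist1h4j: ctacacggagcacgccaagcgcaagaccgt
A read inside any of them names a family and not a gene. The copies were still not treated alike in the lists. Hist1h4m and Hist1h4n have the same coding sequence and share all words up to 5 nt past the stem-loop, yet Hist1h4m had 40.05%, 79.6% and 55.7% coverage and Hist1h4n 12.8%, 0 and 0. Hist2h3c1 and Hist2h3c2, also identical there, had the same PPS of 459 nt at day 2, with scores of 22.07 and 22.17.

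At positions found in a single place, coverage was read again without the copies. Positions were kept if the 30-nt word centred on them occurred nowhere else, which left 3587 of 4222 nt in H1 genes, 1162 of 5548 nt (20.9%) in H3 genes and 2043 of 4762 nt (42.9%) in H4 genes. H3 coverage there was 66.1% at day 0 (46.4% and 64.0% in the replicates), 49.6% at day 2 (44.2% and 41.8%) and 37.5% at day 4 (37.5% and 26.1%), so both later days lay below both day 0 replicates. H4 coverage was 49.8% (42.2% and 36.4%), 35.98% (19.9% and 25.1%) and 63.5% (54.4% and 54.3%), lower at day 2 and higher at day 4 than both day 0 replicates. H1 coverage was 47.9% (40.1% and 42.7%), 46.0% (35.7% and 42.5%) and 37.7% (30.1% and 26.4%), below day 0 at day 4. The rise of the merged H3 and H4 medians at day 2 was thus not seen at these positions. They are the smaller part of the span in both families and hold nothing of Hist2h3c1 and Hist2h3c2. Whether the rise lay in the repeated part was not tested. The ssRNase calls covered 27.7% of these positions in H3 genes and 11.8% in H4 genes at that day. Gene by gene, among those with 50 or more such positions, the median change from day 0 to day 4 was -26.0 points over 10 H3 genes (replicate pairs from -39.6 to 9.17) and 7.76 points over 11 H4 genes (3.68 to 13.2), and these ranges overlapped. In H1 genes it was -17.6 points (-24.7 to -14.4). This restriction was chosen after the data had been seen.

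**Figure D5:**
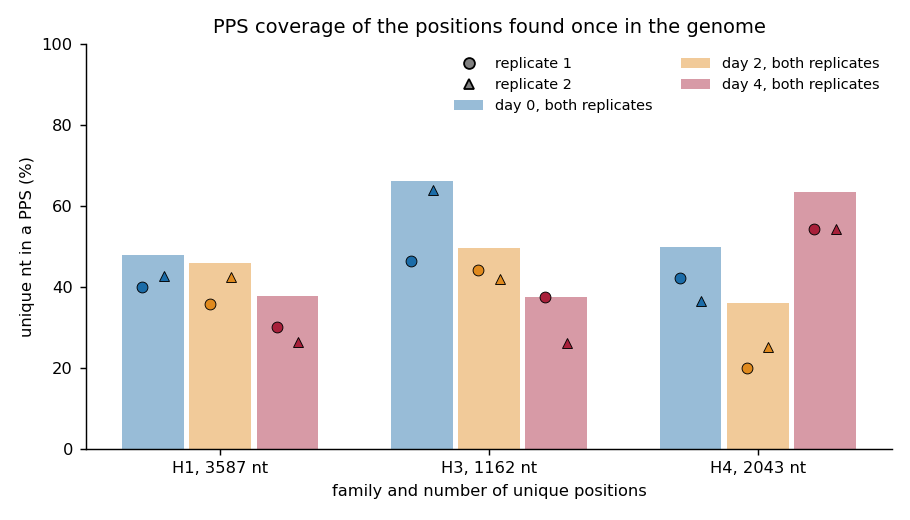
Percent of the positions whose centred 30-nt word occurs a single time in the genome that lie in a PPS (vertical axis), summed over the genes of each family, with bars for the merged list at day 0, 2 and 4 and points for the replicates. H3 goes down from 66.1% to 37.5%, while H4 drops to 35.98% at day 2 and reaches 63.5% at day 4.

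Genes that act with these messages were described from fixed lists, beside the 30.8% of all genes that rose and the 25.4% that fell from day 0 to day 4. Of 5 replacement variants of H3 and H1, 4 had an exonic PPS, 3 rose from day 0 to day 4 and 1 fell. H1f0, the linker variant of cells that stop dividing, went from 34.5% (24.1% and 24.5%) to 42.8% and 73.3% (68.2% and 49.1%). H3f3b, an H3.3 gene, went from 28.5% (24.6% and 20.6%) to 25.0% and 47.6% (37.3% and 41.7%). Cenpa, the centromeric H3, fell from 27.7% (22.6% and 25.5%) to 15.2% and 9.91% (6.14% and 5.27%). H1fx had none. Among 22 genes for histone mRNA 3′ end formation and decay, 21 had an exonic PPS, 5 rose and 9 fell. The 3 largest changes were in Snrpf, an Sm protein of small nuclear RNPs, from 16.5% to 0, in Tut7, a uridyl transferase, from 9.75% to 22.5%, and in Snrpb, from 40.8% to 28.8%. Slbp itself, named here outside that rule, rose from 18.2% (13.2% and 13.9%) to 23.2% (18.9% and 17.7%) after 12.7% at day 2. Of 10 histone chaperones, 5 fell and 1 rose, with the largest changes in Set (36.6% to 17.7%), Nasp, which binds H3 and H4 (23.4% to 6.25%), and Asf1b, another H3 and H4 chaperone (14.3% to 1.80%). The median change was 8.11 points over the variants, -0.67 over the 3′ end and decay genes and -6.11 over the chaperones, against 0 over all genes.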

How the data were processed

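PIP-seq libraries of total RNA were strand-specific. Per the labels and the methods of the study, the authors trimmed reads with cutadapt 1.2.1 and aligned them to mm10 with TopHat2 2.0.10. The aligner was set to a limit of 10 hits a read. PCR duplicates were collapsed, and PPSs were called at an FDR of 5% with a modified CSAR, footprinting against structure-only. Library scaling is not given in the sources used here. The deposited lists hold merged PPSs of a day with a score, which appears to be summed over calls, and the call sets behind each. Library totals were not analysed here, so depth is known only as calls per set. Coverage, positions and copies were computed with Python 3.11.15 and numpy 2.4.6. The call rule was tested on simulated data with close replicates and unmerged calls, so its error rate in these lists is not known. PPSs of 20 to 40 nt were left out. Alternatives were a score of 10 or more, other lengths, replicate support, single calls, each nuclease, antisense strand, 1 transcript, left-out replicates and a replicate block, and, chosen after seeing the data, the common span and the single-place positions. Named genes are the 3 with the largest change and the 3 most covered at day 0 in each family, and the 3 largest changes of each other list. Members and lists were chosen with earlier results of these data known. The study describes the replicates of a day as 2 biological replicates of cultured cells.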

Additional observations from a re-analysis of the deposited data

Results flagged for a closer look

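PPSs of 20 to 40 nt, which the comparisons leave out because ribosomes can protect such lengths, were also found on the exons of these genes, and no call was found on the antisense strand. There were 7 at day 0, 10 at day 2 and 10 at day 4, of which H1 genes held 5, 4 and 7, H3 genes 1, 3 and 2 and H4 genes 1, 3 and 1. The PPS of 29 nt on Hist1h1t at day 2, from ssRNase replicate 1 alone, began 649 nt from the start codon and ended 3 nt past the stem-loop, so it covered the stem-loop of a gene that had no longer PPS at that day. It was named after its values were seen.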

How the results depend on the processing

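Over the 14 values of the day comparisons and counts, 117 recomputed values stayed within the spread or within 1.5 times the count, 71 moved and 1 reversed, where only a change whose 4 replicate pairs all had its sign (H1, day 0 to day 4) could count as reversed. Medians of the change below are in percentage points. Leaving out a replicate, mainly replicate 2 of day 0, gave day 0 to day 2 medians from -9.05 to 24.9 (31 genes), -8.30 to 7.83 (H1), -5.93 to 32.4 (H3) and -13.7 to 25.8 (H4), and day 0 to day 4 medians from -12.8 to 7.88, -16.7 to -4.36, -25.5 to 4.53 and -4.31 to 20.5, so of these day 4 changes the H1 fall alone kept its direction. Covered stem-loops then ranged from 3 to 4, 1 to 1 and 2 to 3, and PPS numbers from 51 to 75, 58 to 65 and 61 to 69. PPSs with an ssRNase call gave, from day 0 to day 2, 20.4 (31 genes), -3.60 (H1), 32.6 (H3) and 19.2 (H4). From day 0 to day 4 they gave -5.46 (H1) and -2.72 (H3), with 0 covered stem-loops on each day and 26, 52 and 12 PPSs. PPSs with a dsRNase call gave -10.5 (H4, day 0 to day 2) and -7.84 (H1, day 0 to day 4). A score of 10 or more gave 11.8 (31 genes) and 20.6 (H3) at day 2, -0.80 and -3.25 at day 4, 3 and 1 stem-loops at days 0 and 4, and 53, 46 and 50 PPSs. PPSs with calls of both replicates gave 23.7 (H3, day 0 to day 2), 0 (31 genes), -5.32 (H1) and -2.33 (H3) from day 0 to day 4, 2 and 1 stem-loops at days 0 and 4, and 38, 38 and 43 PPSs. Single-call PPSs turned the H1 change to 0.88, held 3 and 0 stem-loops at days 0 and 2 and numbered 46, 45 and 41. Antisense PPSs gave 0 throughout, all lengths 2 stem-loops at day 2, and at least 1 nt of the stem-loop 8 at day 0. The common span gave -10.0 and -18.6 for H1, and single-place positions -8.60 and -17.6 for H1, -11.7 and 7.76 for H4 and, from day 0 to day 4, 3.68 over the 27 genes with 50 or more such positions. Among single genes called from day 0 to day 4, single-call PPSs turned Hist1h1a (24.2), Hist1h1c (-0.32), Hist1h1d (2.09), Hist1h1e (3.47), Hist1h3a (2.25), Hist1h3g (-26.6), Hist1h4a (-30.1) and Hist1h4c (-22.2), ssRNase calls turned Hist1h1e (6.74) and Hist1h3e (-5.62), and leaving out day 0 replicate 2 turned Hist1h1b and Hist1h3d (-36.9 to 0.27 and -21.9 to 2.16 over the replicates left out). Causes were not tested, beyond fewer PPSs in each subset. The labels do not say that a replicate number links days. With the replicate block the medians were 6.95, -0.48, 11.1 and -0.72 from day 0 to day 2 (31 genes, H1, H3, H4) and -4.08, -11.4, -11.6 and 7.35 to day 4, within the replicate spread.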
